A study of Mus musculus with 2 samples.

Results

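The genes described here are 36 genes of autophagy and the lysosome, chosen by name from the known machinery and measured in long-term hematopoietic stem cells (LT-HSCs) of old mice. The array design named 22608 genes, of which 17230 exceeded background clearly on at least 1 array and 15679 on both. All 36 were well above background on both arrays. The study asked what loss of p38α, the stress-activated kinase encoded by *Mapk14*, does to blood stem cells during aging. RNA of sorted LT-HSCs from C57BL/6J mice aged 2 years was run on Agilent mouse arrays in a single colour, Cy3, with 1 array per genotype. The array labelled p38αΔ/Δ came from mice with floxed *p38α* and CAG-CreERT2, a Cre driven in most cell types and switched on by tamoxifen (TAM), which had been injected about 1 year before. The p38α+/+ array came from TAM-injected mice of the same age with floxed *p38α* and no Cre, so that both groups carried the floxed alleles and had received TAM. The labels give the sorted bone marrow cells as CD150+CD48-Flt3-CD34- LSK, to which the methods add CD41-, and the number of mice behind each array is not given in the sources used here. With 1 array per genotype there was no replicate check, so every difference below compares these arrays and not the genotypes, and no test was run.

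Autophagy encloses cytoplasm and organelles in a double membrane and delivers them to the lysosome for breakdown. The ULK kinase complex starts the process, a class III PI3-kinase marks the growing membrane with PI3P, a pair of ubiquitin-like conjugation systems attach Atg8 proteins to the membrane lipid, and receptors bound to Atg8 proteins bring in the cargo. The lysosome, which is acidified by the V-ATPase and filled with cathepsins and other hydrolases, then degrades the content, and transcription factors of the TFEB family drive the genes of both compartments. In blood stem cells autophagy clears mitochondria and helps to keep the cells quiescent.

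Each value is a level, the log2 signal relative to the 75th percentile of the same array, and each difference is the level on the array labelled p38αΔ/Δ minus the level on the p38α+/+ array. The brightest probe stood for a gene. Signals of different probes are not compared with each other, since probes bind with different strength. Probes spotted repeatedly on an array varied with a median SD of 0.09 and 0.10, which gives an SD of 0.14 for a difference between single spots. This covers the spotting error within an array and not the spread between mice. *Mapk14* itself read 2.34 on the p38α+/+ array and 2.31 on the other with its brightest probe (difference -0.04), and 2.08 and 2.03 with the other probe (-0.05). It was therefore not lower on the array labelled p38αΔ/Δ. Whether these probes lie in the deleted part of the gene is not known here, so directions rest on the labels alone.

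A number of lysosome and autophagy genes carry a short promoter motif, CACGTG, which forms the core of the longer TCACGTGA bound by the TFEB family. Both read the same on either strand, and each TCACGTGA holds a CACGTG. Promoter windows of RefSeq (build GRCm38.p6), from 250 bases before to 50 bases after the start of a transcript, were given for 27 of the 36 genes, fewer than the share needed to compare the list as a set, so the matches are a description only. CACGTG occurred in windows of 6 of these 27 genes (22.2%), beside 2187 of all 27025 genes with a window (8.09%). TCACGTGA occurred in 2 of the 27 (7.41%), *Atg3* and *Ctsd*, beside 304 of all genes (1.12%). The stretches around the matches are shown because the genes that carry them are those of the conjugation and lysosome groups described further on. Capitals mark CACGTG.
*Lamp1*, chr8:13159090-13159161, plus strand: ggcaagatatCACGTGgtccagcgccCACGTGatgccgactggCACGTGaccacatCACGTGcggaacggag
*Atg3*, chr16:45158725-45158773, plus strand: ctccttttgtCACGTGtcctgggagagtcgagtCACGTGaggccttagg
*Ctsd*, chr7:142387910-142388077, minus strand: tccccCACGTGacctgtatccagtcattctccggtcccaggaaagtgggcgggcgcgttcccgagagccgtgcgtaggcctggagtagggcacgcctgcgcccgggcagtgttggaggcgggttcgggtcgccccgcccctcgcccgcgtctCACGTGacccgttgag
*Atg5*, chr10:44268315-44268340, plus strand: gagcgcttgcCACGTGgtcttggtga
*Atg7*, chr6:114670954-114670979, plus strand: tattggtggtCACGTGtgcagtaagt
*Ctsl*, chr13:64370741-64370766, minus strand: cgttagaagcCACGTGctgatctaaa
*Lamp1* carried 4 copies just before the start, *Atg3* and *Ctsd* carried 2 each, and *Atg5*, *Atg7* and *Ctsl* carried 1 each. In *Ctsd* the copy nearest the start, and in *Atg3* likewise, is the one within TCACGTGA.

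Across the 36 genes the levels on both arrays were close, with a small shift downward. The median difference was -0.19, beside -0.04 over the 15679 genes well above background on both arrays. Over those genes the median depended on the mean level of the arrays. It was -0.08 at levels of 0 or above, -0.02 from -2 to 0 and 0.06 below -2. A lower value on the array labelled p38αΔ/Δ was found for 22 of the 36 (61.1%), beside 53.2% of all genes. At least 2-fold lower were 2 genes (5.56%), *Sqstm1* and *Map1lc3a*, beside 5.01% of all genes, and none was 2-fold higher, beside 3.18%. At 1.5-fold, 6 genes were lower (16.7%), beside 13.7%, and 1 was higher (2.78%), beside 11.1%. The share of the list past either fold on the lower side is thus near the background of these arrays and is not a result about the list. For 7 genes the difference was smaller than the SD of 0.14 between single spots. In RNA of pooled cells, fewer cells of a type and less RNA per cell cannot be told apart.

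**Figure D1:**
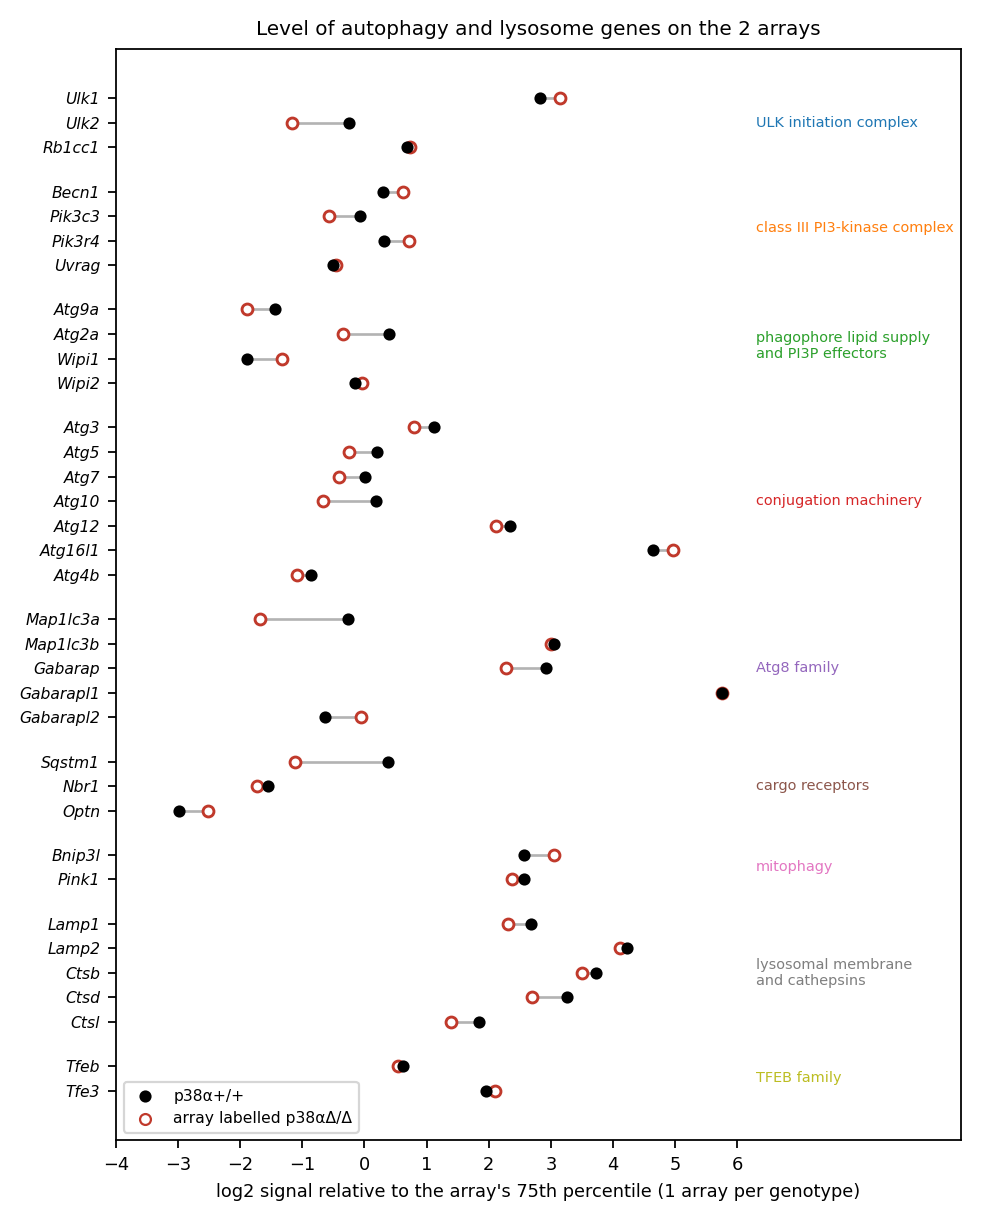
Level of 35 of the genes on the p38α+/+ array (filled) and on the array labelled p38αΔ/Δ (open), grouped by role. The horizontal axis is the log2 signal relative to the 75th percentile of the array, with 1 array per genotype and hence no error bar. The widest gaps are those of *Sqstm1* and *Map1lc3a*, lower by 1.49 and 1.42, while the pairs of *Gabarapl1*, *Map1lc3b* and *Uvrag* nearly coincide.

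The ULK complex, which starts the phagophore, and the class III PI3-kinase complex, which follows it, each held genes that were higher, lower and within the spotting error. *Ulk1*, the kinase that nutrient sensors act on, read 2.83 on the p38α+/+ array and 3.14 on the other, a difference of 0.32. *Ulk2*, its close relative, read -0.25 and -1.16, a difference of -0.92, and its other probe gave -0.56. *Rb1cc1*, the scaffold FIP200 of the complex, differed by 0.05. The kinases of the pair thus lay on opposite sides of 0, each beyond the spotting error. Of the PI3-kinase complex, *Becn1*, the Beclin subunit, was higher by 0.33 (0.29 against 0.63), and *Uvrag*, a subunit of the form that acts on late endosomes, differed by 0.04. *Pik3r4*, the regulatory subunit Vps15, was spotted 10 times on each array and read 0.31 ± 0.07 (SD over spots) and 0.72 ± 0.11. Its spots reached from 0.18 to 0.42 on the p38α+/+ array and from 0.52 to 0.86 on the other, so they did not overlap. The spots are copies within 1 array, so this covers the spotting error alone. For *Pik3r4* the difference was 0.41, and 18.8% of all genes had a difference as high or higher. *Pik3c3*, the lipid kinase itself, was lower by 0.50 with its brightest probe (-0.07 against -0.56) and differed by 0.03 with its other probe.

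The proteins that bring lipid to the phagophore or read its PI3P went both ways. *Atg2a*, a lipid transfer protein, read 0.39 and -0.34, a difference of -0.73. *Atg9a*, the scramblase of the vesicles that seed the membrane, read -1.44 and -1.89, a difference of -0.45. The PI3P-binding proteins *Wipi1* and *Wipi2* had brightest probes that were higher, by 0.56 and 0.12. Each also had a probe that went the other way. For *Wipi1* the other probes gave 1.90 and -0.89, and for *Wipi2* the other probe gave -1.57. No direction can therefore be given for either gene.

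The conjugation machinery was lower for 6 of its 7 genes (85.7%), beside 53.2% of all genes, with a median of -0.32. Of the lower genes, *Atg3*, *Atg12* and *Atg4b* lay within the middle quartiles of all genes, which reach from -0.35 to 0.30. *Atg7*, the E1-like enzyme that activates both ubiquitin-like proteins, read 0.00 and -0.41, a difference of -0.42, and its other probe gave -0.13. *Atg3*, the E2-like enzyme that hands Atg8 proteins to the lipid, read 1.12 and 0.80, a difference of -0.32. *Atg10*, the E2-like enzyme for *Atg12*, read 0.19 and -0.67, a difference of -0.87, while its other probe gave -0.16. These are the enzymes of both conjugation cascades, and all were lower by more than the spotting error with the brightest probe. *Atg5* and *Atg12*, which are joined to each other, were lower by 0.46 (0.20 against -0.25) and by 0.23 (2.35 against 2.12). *Atg4b*, the protease that trims Atg8 proteins and frees them again, was lower by 0.23. *Atg16l1*, which places the *Atg12* and *Atg5* conjugate on the membrane, was the exception, with 4.64 and 4.96 and a difference of 0.32. Under each of the 8 other ways of processing the arrays, 6 of the 7 genes were again lower and the median lay between -0.32 and -0.27. Several of these ways could hardly move a gene that was well above background on both arrays. *Atg3*, *Atg5* and *Atg7* are the conjugation genes with CACGTG in the windows shown above.

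The Atg8 proteins, which coat the autophagosome and bind its cargo, split into 3 lower and 2 higher with a median of -0.05. *Map1lc3a* gave a signal of 119.8 on the p38α+/+ array and 35.9 on the other, which are levels of -0.26 and -1.68 and a difference of -1.42. It has a single probe on the array, and 1.80% of all genes had a difference as low or lower. *Map1lc3b*, the LC3 form most used as a marker of autophagosomes, was spotted 10 times and read 3.05 ± 0.05 (SD over spots) and 2.996 ± 0.06, a difference of -0.05. The spots of the arrays overlapped, from 2.98 to 3.13 and from 2.92 to 3.09. *Gabarapl1* read 5.76 on both arrays, a difference of 0.00, and *Gabarapl2* read -0.63 and -0.06, a difference of 0.57. The LC3 and GABARAP branches therefore each held a gene that hardly differed and a gene that did.

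*Gabarap* shows how far the answer can rest on the probe. Its brightest probe read 2.91 and 2.27, a difference of -0.64, a second bright probe read 2.65 and 2.47, a difference of -0.18, and another, dim probe read -3.85 and -2.28, a difference of 1.57. The brightest lies at chr11:69808343-69808402 of build mm9, the second at chr11:69806095-69806154 and the dim probe at chr11:69804812-69804871, all on the plus strand. The mean of the probes is 0.25 and so has the opposite sign to the brightest. Of the 13 genes of the list with more than 1 probe above background on both arrays, 7 had probes that all pointed one way (53.8%), beside 2431 of 4553 genes on the whole array (53.4%). For 3 of the 13 the probes spread over more than 1 log2 unit (23.1%), beside 21.4% of all such genes. Disagreement of this size is thus as common in the list as on the arrays at large.

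**Figure D2:**
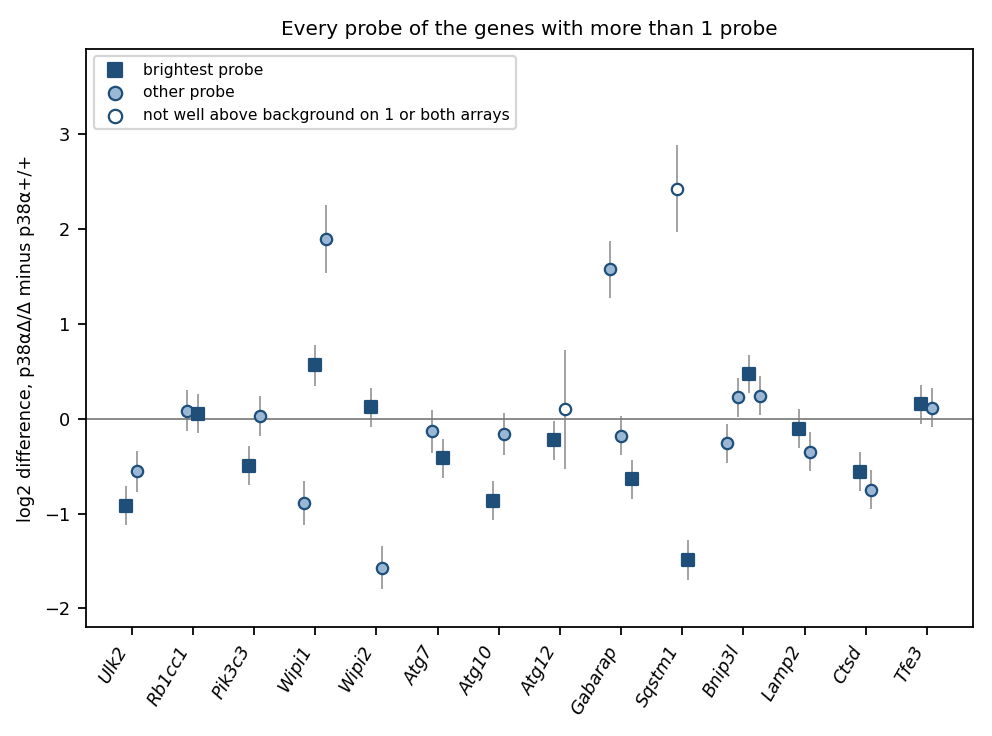
Difference (log2, array labelled p38αΔ/Δ minus p38α+/+) of every probe of the genes drawn that have more than 1 probe. Squares are the brightest probes, filled circles the others, and open circles probes not well above background on 1 or both arrays. Bars are the error that the scanner software gives for a spot, combined over both arrays as the root of the summed squares, about 0.20 for bright probes. The probes of *Wipi1*, *Gabarap* and *Sqstm1* lie on both sides of 0, and those of *Ulk2* and *Ctsd* on the lower side.

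The cargo receptors held the largest difference of the list. *Sqstm1*, the receptor p62 that links ubiquitinated cargo to Atg8 proteins and is itself degraded with it, gave a signal of 185.9 on the p38α+/+ array and 53.1 on the other. Its levels were 0.37 and -1.11 and its difference -1.49, and 1.52% of all genes had a difference as low or lower. Its other probe went the opposite way, with signals of 5.19 and 22.3. On the p38α+/+ array that probe was not well above background, so it gives only a bound, a signal at least 4.87-fold higher with the label p38αΔ/Δ. The probes are 60-mers. Shown are the brighter *Sqstm1* probe, which carries the largest difference of the list, the second bright probe of *Gabarap*, which was lower by less than the brightest, and the *Wipi1* probe that was higher by more than the brightest. Coordinates are of build mm9.
*Sqstm1*, brightest, chr11:50015985-50016044, minus strand: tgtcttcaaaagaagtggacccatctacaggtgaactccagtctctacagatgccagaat
*Gabarap*, second, chr11:69806095-69806154, plus strand: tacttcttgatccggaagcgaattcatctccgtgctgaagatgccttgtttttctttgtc
*Wipi1*, higher by 1.90, chr11:109443686-109443745, minus strand: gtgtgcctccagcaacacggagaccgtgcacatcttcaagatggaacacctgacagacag
The dim *Sqstm1* probe lies at chr11:50012868-50012927 on the same strand. *Nbr1*, a receptor built like p62, read -1.56 and -1.73, a difference of -0.17. *Optn*, the receptor optineurin, read -2.98 and -2.52, a difference of 0.46.

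Of the genes of mitophagy, the removal of mitochondria, *Pink1*, the kinase that marks damaged mitochondria, read 2.57 and 2.37, a difference of -0.20. *Bnip3l*, the mitochondrial receptor NIX, was higher by 0.47 with its brightest probe (2.57 against 3.04), and its other probes gave 0.24, 0.22 and -0.26. *Bnip3l* thus had a probe on the other side of 0.

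All 5 genes of the lysosomal membrane and the cathepsins were lower, beside 53.2% of all genes, with a median of -0.37, and none reached 1.5-fold. *Lamp1*, a main glycoprotein of the lysosomal membrane, read 2.68 and 2.31, a difference of -0.37. *Lamp2*, its partner, which also acts in chaperone-mediated autophagy, read 4.22 and 4.12, a difference of -0.11, and its other probe gave -0.35. *Ctsd*, the aspartic protease cathepsin D, read 3.26 and 2.70, a difference of -0.56, and its other probe gave -0.75. The genes with a second probe thus kept their direction. *Ctsl*, the cysteine protease cathepsin L, read 1.84 and 1.40, a difference of -0.43. *Ctsb*, cathepsin B, read 3.73 and 3.50, a difference of -0.22. Only *Lamp2* lay within the spotting error, and with quantile normalization its difference was 0.00 and positive, so that 4 of the 5 were lower there. The median of the 5 lay between -0.42 and -0.29 over the other ways of processing. All 5 had a mean level above 0 on these arrays, and among the 7562 genes of that range the median difference was -0.08 and the lower quartile -0.32.

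Of the transcription factors that drive these genes, *Tfeb* and *Tfe3* differed little at the RNA level. The other members of the family, counted with the further genes below, differed by more. *Tfeb* read 0.63 and 0.55, a difference of -0.08, and *Tfe3* read 1.95 and 2.10, a difference of 0.15, with 0.11 from its other probe. The 6 genes with CACGTG in the windows shown above, *Lamp1*, *Ctsd*, *Ctsl*, *Atg3*, *Atg5* and *Atg7*, had differences from -0.56 to -0.32, all negative. Since too few of the 36 have a window, a comparison of those with and without the motif is void. Among all genes with CACGTG and a measured level, 789 of 1399 were lower (56.4%), beside 6360 of 12166 without it (52.3%). The further autophagy and lysosome genes, with windows for 114 of 144, did not go one way. With CACGTG 21 of 30 were lower (70%), beside 45 of 81 without it (55.6%). With TCACGTGA 6 of 12 were lower (50%), beside 60 of 99 without it (60.6%). A link between motif and difference was not tested. A match says only that these letters are in the window.

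The rest of the pathway, 144 further autophagy and lysosome genes with a mouse symbol, leaned the same way as the 36. Of these, 141 were well above background on both arrays, while *Atg9b*, *Atg4a* and *Ctsk* were not well above background on either. Their median difference was -0.18, with 87 lower (61.7%), beside 53.2% of all genes, and 54 higher. At least 2-fold lower were 10 genes (7.09%), beside 5.01% of all genes, and 2-fold higher 1 gene (0.709%), beside 3.18%. The share that was 2-fold lower is near the background, so the genes past 2-fold named below are single values and not a result about the pathway. With normexp background correction 2 of the 141 genes were 2-fold lower, beside 0.725% of all genes measured on at least 1 array. Of the 97 lysosome genes among them 62 were lower (63.9%), and of the 44 autophagy genes 25 (56.8%).

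**Figure D3:**
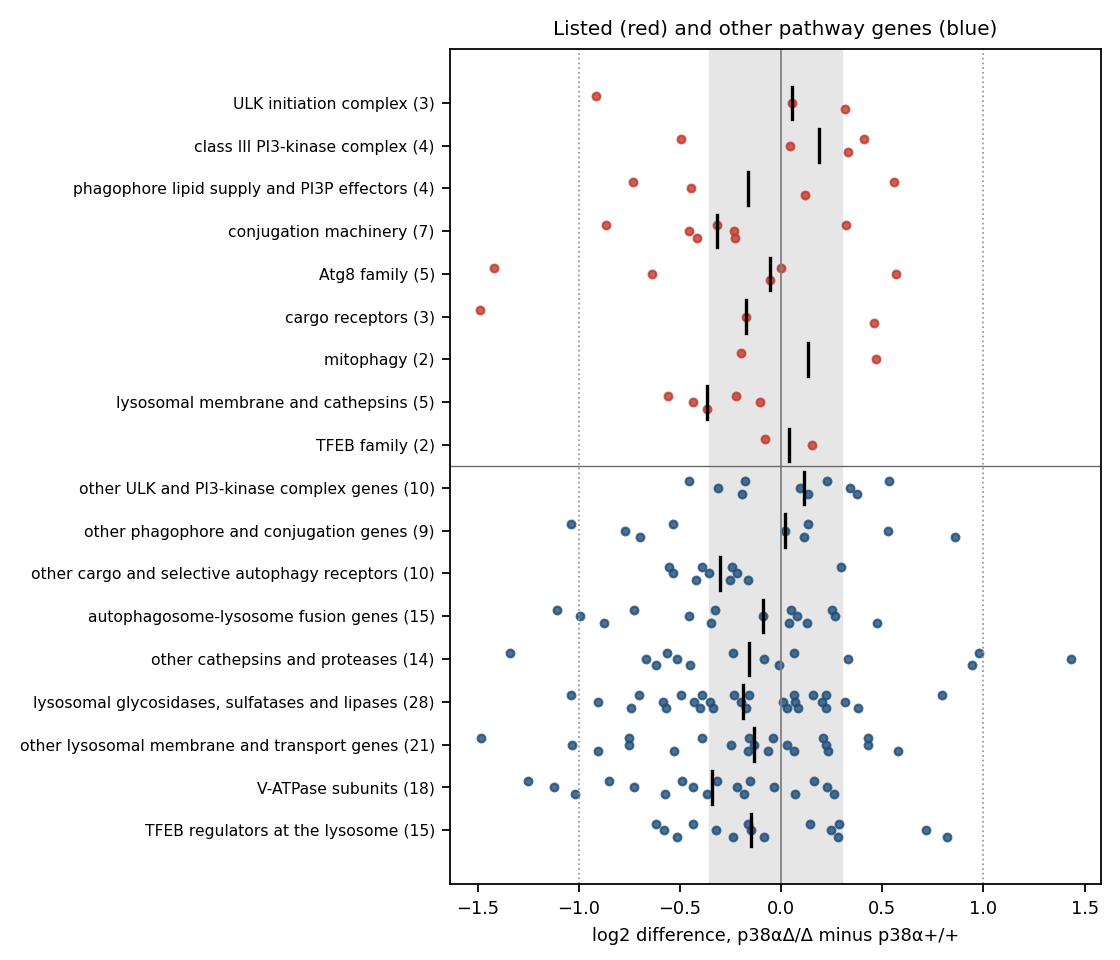
Difference (log2, array labelled p38αΔ/Δ minus p38α+/+) of 35 genes of the list by role (red) and of 140 other autophagy and lysosome genes (blue), 1 point per gene, with the number of genes in brackets. Black bars are medians of the genes drawn, the grey band holds the middle quartiles of all genes on both arrays (-0.35 to 0.30), and dotted lines mark a 2-fold difference. Conjugation genes, lysosomal membrane and cathepsin genes and V-ATPase subunits have medians of -0.32, -0.37 and -0.34, and single genes of most groups lie on both sides of 0.

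The V-ATPase, the proton pump that acidifies the lysosome, was lower for 14 of 18 subunits (77.8%), beside 53.2% of all genes, with a median of -0.34. *Atp6v0e2* and *Atp6v0b*, of the membrane sector, read -0.28 and -1.53 (difference -1.25) and 2.47 and 1.45 (-1.02). *Atp6v1e1*, of the cytosolic sector, read 1.56 and 0.43, a difference of -1.12. These 3 of the 18 subunits (16.7%), beside 5.01% of all genes, are among the 10 genes past 2-fold. Subunits of both sectors are among them, and each is a single value from 1 probe. With quantile normalization and with the lowess 2 subunits were past 2-fold, and with normexp none was. Of all genes measured on at least 1 array, 6.60%, 7.03% and 0.725% were 2-fold lower in these settings. In the 8 other ways of processing 14 of the 18 were again lower, and the median lay between -0.34 and -0.25. The further cargo and selective autophagy receptors were lower for 9 of 10 (90%), beside 53.2% of all genes, with a median of -0.30 and none past 1.5-fold. In the other ways of processing 8 or 9 of 10 were lower. Several of these differences lay within the middle quartiles of all genes (-0.35 to 0.30), and some of the lower genes had a probe on the other side of 0.

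Further falls past 2-fold were spread over the pathway. *Laptm4b*, a lysosomal membrane protein, read -0.30 and -1.79, a difference of -1.48. *Arsa*, arylsulfatase A, read 1.04 and 0.00, a difference of -1.04. *Ctsf*, cathepsin F, read 2.51 and 1.17, a difference of -1.34. An enzyme for sulfated lipids and a protease were thus among them. *Vps11*, a core subunit of the HOPS tether that joins lysosome and autophagosome, read 0.87 and -0.24, a difference of -1.11. *Atg2b*, the second lipid transfer protein beside *Atg2a*, read -2.75 and -3.79, a difference of -1.04. *Tmem55b* (now *Pip4p1*), a lysosomal membrane protein, read -1.67 and -2.70, a difference of -1.03. Each of these genes was judged by 1 probe.

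The 3 largest rises in the rest of the pathway were those of cathepsins, while 9 of the 14 genes measured in the list of other cathepsins and proteases were lower. *Ctss*, cathepsin S of antigen-presenting cells, read 0.01 and 1.45, a difference of 1.43. *Ctsg*, cathepsin G of neutrophil granules, read -0.64 and 0.34 (0.98). *Ctse*, cathepsin E, read -3.37 and -2.43 (0.94) from low signals of 13.9 and 21.4. Most markers of mature blood cells that were well above background on both arrays were higher on the same array. Only markers above background on both are counted here, since a gene detected on 1 array alone had to differ. Among all genes on both arrays 53.2% were lower. Of 12 neutrophil granule genes 10 were measured on both arrays and 7 were higher (median difference 1.40), with *Mmp9* not above background on either. *Elane*, *Prtn3* and *Cebpe* went the other way, with differences of -1.41, -0.48 and -0.80. The signals of the 10, as multiples of the 75th percentile, summed to 8.48 for p38α+/+ and to 25.3 for the array labelled p38αΔ/Δ. Of 11 B and plasma cell genes 7 were measured on both, all higher (median 0.69, summed signal 2.81 against 17.7). Most of that sum came from *Jchain*, the joining chain of secreted antibodies, with 1.13 against 15.2. Of the monocyte and macrophage genes 5 of 7 were higher (0.44, 30.6 against 35.7), with *Ccr2*, *Ms4a7* and *C1qc* among those not above background. Most of that sum was *Csf1r* (28.9 against 33.5), and *Lyz2* had a difference of -0.96. The T and NK cell list was higher for 5 of 7 (0.57, 14.98 against 18.7), with *Cd3d* and *Cd3g* not above background. Most of its sum was *Nkg7* (11.6 against 14.5), and *Cd2* had a difference of -2.07. The erythroid list was higher for 6 of 8 (0.48, 14.4 against 19.7), and the megakaryocyte list for 4 of 7 (0.39, 79.2 against 75.0). The HSC markers, which include *Kit*, *Procr*, *Hlf* and *Mecom*, were all 15 measured on both arrays, and 14 were lower (median -0.55, summed signal 200.4 against 154.7). The part of these cell type markers in the differences of autophagy and lysosome genes was not tested.

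**Figure D4:**
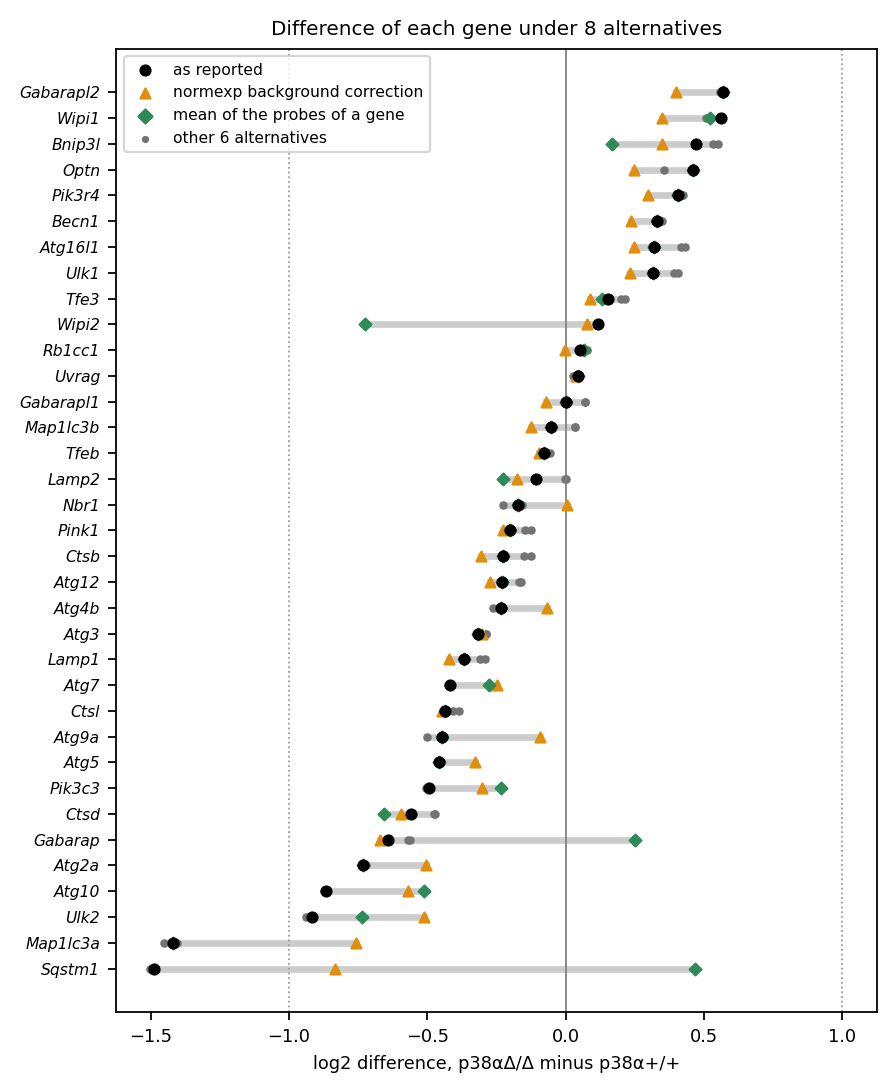
Difference (log2, array labelled p38αΔ/Δ minus p38α+/+) of 35 of the genes as reported (black) and under 8 alternatives, with normexp background correction as triangles, the mean of the probes of a gene as diamonds and the other 6 as small dots. Grey bars span the range and dotted lines mark a 2-fold difference. *Sqstm1* and *Map1lc3a* pass 2-fold as reported and lie at -0.83 and -0.76 with normexp, and the diamonds of *Sqstm1*, *Gabarap* and *Wipi2* lie on the other side of 0.

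The size of a difference depended on the background correction more than its direction did. With normexp correction, which here adds a constant to every signal, *Sqstm1* came to -0.83 and *Map1lc3a* to -0.76, so no gene of the list was 2-fold lower, and of all genes 0.725% were. Of the 36 genes, 28 had 1 sign under every way of processing, among them the 6 lower conjugation genes, *Lamp1*, *Ctsb*, *Ctsd* and *Ctsl*. Several of these ways could hardly change a value, as given in the last section. *Sqstm1* was 0.47 when the mean of its probes stood for it, since the dim probe that gives only a bound then counted in full.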

How the data were processed

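The authors deposited, for each array, scanner intensities made with Agilent Feature Extraction 11.5.1.1, corrected for background and not normalized between arrays, and a second table with log2 values of 35795 probes, which is the log2 intensity of each array minus 1 constant (7.16 and 6.84; column medians -0.79 and -0.79). Control spots and outlier spots were left out (55662 probes kept), spots of a probe were averaged, and the array's 75th percentile of log2 intensity was subtracted (7.16 and 6.85). Well above background were 67.9% and 69.0% of probes, none was saturated, and the number of arrays limits the precision. Names came from the RefSeq table of GRCm38.p6 (31857 probes, 57.2%). The brightest probe stood for a gene. A value under the dimmest detected signal of its array was raised to that signal.

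The 36 genes, the other lists and the alternatives were chosen with earlier results of these data known. Named were the genes of the list except 1, *Mapk14*, and of the other lists the genes past 2-fold and the 3 largest rises and falls; single cell type markers were named after their values were seen. RefSeq promoters were searched on both strands. Calculations were tested on simulated data. The software was R 4.3.3 with limma 3.58.1, and Python 3.11.15 with matplotlib 3.10.9, pandas 2.3.3, numpy 2.4.6 and statsmodels 0.14.6. Tried besides were normexp (offset 50), a lowess between arrays (span 0.3), quantile normalization, centring at the detected probes' median, the authors' values, the mean of a gene's probes, probes above background on both arrays, no filter, and a 1.5-fold threshold. Single values of that gene and of a few genes of the other lists are not reported here, while counts and medians include them.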

Additional observations from a re-analysis of the deposited data

How the results depend on the processing

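The median of the 36 genes, -0.19, lay between -0.19 and -0.11 under the alternatives, and 20 to 23 genes were lower. The median of the other autophagy and lysosome genes, -0.18, lay between -0.18 and -0.14. At least 2-fold lower were 2 genes as reported, 0 with normexp background correction, 1 with the mean of the probes and 6 at a 1.5-fold threshold. Higher were 0 at 2-fold and 1 at 1.5-fold. Of the other autophagy and lysosome genes 10 were 2-fold lower as reported, 2 with normexp and 9 to 11 under the other alternatives. *Sqstm1* turned to 0.47 with the mean of its probes. Of 288 single values of genes under alternatives, 266 moved by less than the SD of 0.14 between single spots and 21 others by more, 13 of them with normexp and 8 with the mean of the probes. Among the latter *Gabarap* and *Wipi2*, neither past 2-fold, changed sign to 0.25 and -0.73. Dropping the filter, or asking for probes above background on both arrays, could not move any of the 36, all above background on both. Median centring and the authors' values only subtract another constant from each array. The 266 is therefore no measure of how robust the values are, which only the remaining alternatives probe. Of all genes measured on at least 1 array, 1140 were 2-fold lower (6.62%) and 710 higher (4.12%) as reported. With normexp these were 125 (0.725%) and 50 (0.290%). No paired analysis was possible because each genotype has 1 array, and for the same reason no replicate could be left out.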
